A study of Mus musculus with 6 samples.

Results

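The 10 genes examined here act in hyaluronan biology, and their levels were measured in arthritic synovial fibroblasts (SFs) treated with amisulpride. They were the synthases Has1, Has2 and Has3, the precursor enzyme Ugdh, the hyaluronidases Hyal1 and Hyal2, and the binding proteins Tnfaip6, Vcan, Hapln1 and Acan. They were picked out by gene name, and all 10 names were found once among the 49548 genes of the deposited table. The cells were primary SFs from ankle joints of hTNFtg mice, which carry a human TNF transgene and develop polyarthritis. All 6 libraries carried the transgene, so cells of both groups came from arthritic mice, and wild-type cells were not analysed here. The 3 libraries of the control group were given no treatment according to the labels (vehicle according to the methods), and the 3 libraries of the other group came from cells that received 500 μM amisulpride for 48 hours. The drug blocks dopamine and serotonin receptors and is used as an antipsychotic. By the study's description the mice were at the stage of established disease on a mixed CBA and C57BL/6J background, and CD45+ blood cells were depleted in culture. The libraries are described there as biological replicates, but the labels do not tie them to animals, so p-values measure the spread between these libraries.

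Hyaluronan is a long unsulfated sugar chain that gives synovial fluid its viscosity. SFs build it at the plasma membrane from 2 sugar nucleotides, UDP-glucuronic acid and UDP-N-acetylglucosamine, and push the growing chain out of the cell. Outside, the chain is bound by proteoglycans and link proteins into a hydrated pericellular coat, and cell surface and lysosomal hyaluronidases cut it. Inflamed joints are known for hyaluronan of reduced chain length and for TSG-6, the product of Tnfaip6, which ties proteins to the chain.

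The values were normalised counts, that is whole numbers that the authors obtained by scaling the reads of each library. Reads came from transcript ends (3′ mRNA sequencing), so splice forms with the same end were not separated. Library depth was approximately 3.63 to 4.71 M reads in untreated and 2.52 to 4.40 M reads in treated SFs, where the estimate for untreated replicate 1 was poorly determined. A floor of 3 reads, set as a working limit for a count of 0 in 1 library, was worth 2.502 to 5.367 normalised counts. It covers counting error only and is not an absolute maximum. Amisulpride replicate 3, the shallowest library, stood apart, with Pearson correlations of 0.882 to 0.909 with the other 5 libraries across genes, against 0.903 to 0.959 among those 5. The 6 tested hyaluronan genes and the tested pathway genes were also fitted without it, but the marker lists were not. All 11 fibroblast markers were tested, with summed levels of 44997 to 59704 normalised counts in untreated and 51651 to 91359 in treated libraries. These sums were made up mostly of Col1a1, Col1a2, Col3a1 and Vim. Of the 11 markers, 0 passed the study thresholds explained below. Their log2 fold changes lay on both sides of 0, from -1.07 for Lum to 0.71 for Col1a2 and Col3a1. Prg4, picked after its values were seen, had 915, 859 and 733 in untreated and 426, 304 and 653 in treated libraries, without overlap. Its log2 fold change was -0.92, with an adjusted p of 0.251 in the limma test described below. All treated values lay below the untreated ones in 8.66% of genes tested. Of 7 endothelial markers 0 passed the filter on low values, and their sum was 4 to 14 in untreated and 2 to 17 in treated libraries. All 9 myeloid markers were detected, with sums of 2258 to 3920 and 2069 to 3950. Of these 9, 2 were lower past the study thresholds, which 5.7% of all genes tested passed, namely Cd14 (log2 fold change of -1.74) and Csf1r (-1.01). Their adjusted limma p-values were 0.144 and 0.456, and the groups overlapped in Csf1r. The other 7 did not pass and had values on both sides of 0, from -1.16 for Ptprc to 0.83 for Adgre1. The part of myeloid cells in the results that follow was not tested. In bulk libraries fewer cells of a type and less RNA per cell cannot be told apart.

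The start regions of Vcan and Tnfaip6 are shown because Vcan had the lowest p-value of the 10 genes and Tnfaip6 is the one named for its induction by TNF. Each is the 250 bases before the RefSeq transcription start (build GRCm38.p6), 5′ to 3′ on the strand of the gene. Capitals mark matches on either strand to 6 motifs, namely those of AP-1, NF-kB and TCF/LEF and the GC, CCAAT and TATA boxes, whose letters are given with their counts below the windows. None of the matches shown overlapped another. The Vcan window lies at chr13:89742513-89742762 on the minus strand and the Tnfaip6 window at chr2:52037863-52038112 on the plus strand. The deposited table starts Tnfaip6 at 52038009, upstream of the RefSeq start, so the last part of its window lies inside the gene as annotated there.
Vcan: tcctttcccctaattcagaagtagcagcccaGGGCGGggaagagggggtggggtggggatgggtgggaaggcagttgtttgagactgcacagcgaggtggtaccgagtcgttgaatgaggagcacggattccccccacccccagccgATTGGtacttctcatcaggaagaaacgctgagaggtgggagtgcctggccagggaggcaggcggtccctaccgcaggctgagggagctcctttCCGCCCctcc
Tnfaip6: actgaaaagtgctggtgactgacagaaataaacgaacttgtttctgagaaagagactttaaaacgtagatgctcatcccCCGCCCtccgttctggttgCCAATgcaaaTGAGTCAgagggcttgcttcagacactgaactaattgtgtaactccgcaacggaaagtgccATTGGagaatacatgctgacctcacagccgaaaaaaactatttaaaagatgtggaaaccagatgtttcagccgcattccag

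The capitals in the Vcan window are a GC box at each end and a CCAAT box between them. Those of Tnfaip6 are a GC box, a CCAAT box, an AP-1 match and a second CCAAT box, in that order. Windows were found for 8 of the 10 genes, all but Has2 and Has3. A gene was counted if any of its windows matched, while the shares of all are shares of single windows. The AP-1 motif was searched as TGA and TCA with any base between them, and it occurred in 6.75% of 32851 windows of all genes and, among the 8, in Tnfaip6 alone. The GC box, searched as GGGCGG, was found for 6 of the 8 genes and in 32.7% of all windows. The CCAAT box, searched by the letters of its name, was in 5 of the 8 and in 33.8% of all. The NF-kB motif (GGG, any 2 bases, then TTTCC) was in 0 of the 8 and in 1.41% of all windows. The TCF/LEF motif, with the letters CTTTGA, was likewise in 0 of the 8, against 13.8% of all. The TATA box was searched as TATAAA, which was in 0 of the 8 and in 12.4% of all. No match says only that these letters are not in the window. A match is a description of the letters and not a binding site.

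Whether amisulpride changed these genes was tested with limma on log2(normalised count + 1) over all genes that reached 10 in 3 or more libraries. The study thresholds named below are those by which the study called genes, a log2 fold change of 1 or more in size together with p under 0.05 before adjustment. Of the 10 genes, 6 were tested, and 0 of the 6 passed the study thresholds, which 5.7% of the 12614 genes tested did. Vcan, a large matrix proteoglycan, was the only one with an unadjusted limma p-value under 0.05, against 10.9% of all genes tested. An adjusted p-value under 0.05 was reached by 0 of the 6 and by 0.285% of all genes tested. With the replicate number as a block it was again reached by 0 of the 6, and by 2.08% of all genes tested. The groups overlapped in each of the 6, whereas all treated values lay below the untreated ones in 8.66% of genes tested and above them in 7.8%. The median log2 fold change of the 6 was -0.06, against 0.00 over all genes tested. The 4 genes without a test never exceeded 7 normalised counts.

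**Figure D1:**
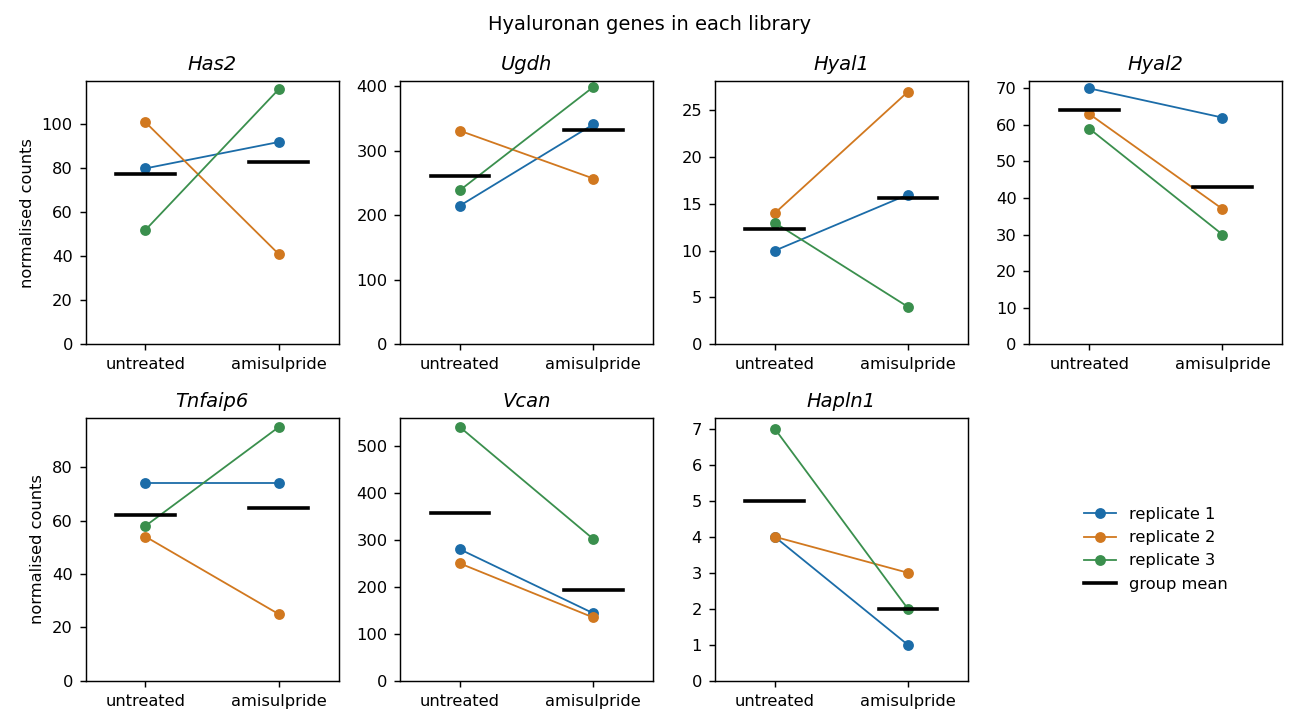
Normalised counts (vertical axes, each starting at 0) of the 6 tested hyaluronan genes and of Hapln1 in untreated and amisulpride-treated SFs. Points are single libraries, lines join libraries with the same replicate number and black bars are group means (n = 3). Vcan and Hyal2 were lower in the treated library of every replicate number, while the lines of Has2, Ugdh, Hyal1 and Tnfaip6 ran in different directions.

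Among the synthases, which polymerise the chain, Has2 was the only one above the floor. Has2 (ENSMUSG00000022367, chromosome 15, 56665627 to 56694539, minus strand) had 80, 101 and 52 normalised counts in untreated replicates 1, 2 and 3 and 92, 41 and 116 in treated ones. The lowest and the highest of the 6 values were both in treated libraries, and they enclosed the untreated ones. The group means were 77.7 ± 24.6 and 83.0 ± 38.3 (SD, n = 3). On the log2 scale the fold change was 0.02 ± 0.41 (SE), with a 95% interval of -0.87 to 0.91 and a limma adjusted p of 0.989. The interval reached almost 1 log2 unit either way. By replicate number the treated library stood at 115%, 40.6% and 223% of its untreated partner. The sign of the fold change depended on single libraries, which gave -0.28 when amisulpride replicate 3 was dropped, -0.24 for untreated replicate 3, -0.12 for amisulpride replicate 1 and 0.46 for amisulpride replicate 2.

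The antisense gene Has2os overlaps 4596 bases of Has2 around its start. Has2os had 4, 12 and 5 normalised counts in untreated and 34, 17 and 2 in treated libraries. The annotated 3′ end of Has2 lies 24317 bases from this overlap. Whether the authors counted reads by strand was not stated. Has1 (ENSMUSG00000003665, chromosome 17, 17843328 to 17855188, minus strand) had 2 normalised counts in untreated replicate 2 and 0 in the other 5 libraries. Has3 (ENSMUSG00000031910, chromosome 8, 106870242 to 106884566, plus strand) was at 0 in all 6 libraries, whose floors were 2.502 to 5.367 normalised counts. Both were thus not detectable at this depth, and no fold is given. The 3′ end of Has3 lies within Chtf8 on the opposite strand, which had 102 to 183 normalised counts.

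Ugdh oxidises UDP-glucose to UDP-glucuronic acid, one of the building blocks of the chain. Ugdh (ENSMUSG00000029201, chromosome 5, 65413221 to 65435949, minus strand) had 215, 331 and 239 normalised counts in untreated and 341, 257 and 399 in treated libraries. Of the treated values 2 lay above all untreated ones, and that of replicate 2 lay among them. The means were 261.7 ± 61.2 and 332.3 ± 71.4 (SD, n = 3). Its log2 fold change came to 0.35 ± 0.27 (SE), with a 95% interval of -0.25 to 0.94 and a limma adjusted p of 0.697. It was 0.20 without amisulpride replicate 3 and 0.53 without untreated replicate 2, and thus above 0 with any 1 library left out.

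The hyaluronidases Hyal2 and Hyal1 are neighbours on chromosome 9, 4147 bases apart on the same strand. Hyal2, an enzyme anchored at the cell surface that cuts long chains into fragments, had 70, 63 and 59 normalised counts in untreated and 62, 37 and 30 in treated libraries. The untreated values lay within a factor of 1.19 of each other, and the treated value of replicate 1 was the only one inside their range. Hyal2 (ENSMUSG00000010047, 107567945 to 107572779, plus strand) had means of 64.0 ± 5.57 and 43.0 ± 16.8 (SD, n = 3). For Hyal2 the log2 fold change was -0.63 ± 0.34 (SE), with a 95% interval of -1.36 to 0.11 and a limma adjusted p of 0.540. Each treated library stood below its untreated partner, at 88.6%, 58.7% and 50.8%. The value was -0.92 without amisulpride replicate 1, where the unadjusted limma p was 0.0208, and -0.41 without amisulpride replicate 3.

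Hyal1, the lysosomal enzyme that degrades shorter chains, was near the filter. Hyal1 (ENSMUSG00000010051, 107576927 to 107581710, plus strand) had 10, 14 and 13 normalised counts in untreated and 16, 27 and 4 in treated libraries. The treated values covered a 6.75-fold range that enclosed all untreated ones, and the lowest, in amisulpride replicate 3, was under the floor of that library. For Hyal1 the log2 fold change was 0.01 ± 0.64 (SE), with a 95% interval of -1.39 to 1.41 and a limma adjusted p of 0.997. It moved from -0.52 without amisulpride replicate 2 to 0.72 without amisulpride replicate 3. The 3′ end of Hyal1 lies inside Nat6 and Hyal3 on the same strand, and Nat6 had 63 to 144 normalised counts, so the assignment of reads to Hyal1 is uncertain.

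Of the binding proteins, TSG-6 is a secreted protein with a hyaluronan-binding link module that transfers heavy chains of inter-alpha-inhibitor to the chain. Its gene Tnfaip6 (ENSMUSG00000053475, chromosome 2, 52038009 to 52056686, plus strand) had 74, 54 and 58 normalised counts in untreated and 74, 25 and 95 in treated libraries. As for Has2, the lowest value was in amisulpride replicate 2 and the highest in amisulpride replicate 3, on both sides of the untreated range. The means were 62.0 ± 10.6 and 64.7 ± 35.9 (SD, n = 3). The Tnfaip6 log2 fold change was -0.13 ± 0.45 (SE), with a 95% interval of -1.10 to 0.85 and a limma adjusted p of 0.938. Without amisulpride replicate 2 it was 0.44, without untreated replicate 1 it was 0.01, and without amisulpride replicate 3 it was -0.50. No difference in this TNF-induced transcript was thus detectable at this spread.

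Versican, the product of Vcan, is a proteoglycan whose link modules hold hyaluronan at its N-terminal end. Vcan (ENSMUSG00000021614, chromosome 13, 89655312 to 89742509, minus strand) had 280, 250 and 540 normalised counts in untreated and 144, 135 and 302 in treated libraries. Replicate 3 was high in both groups, and its treated value lay above untreated replicates 1 and 2, so the groups overlapped. The means were 356.7 ± 159.5 and 193.7 ± 93.9 (SD, n = 3). For Vcan the log2 fold change was -0.89 ± 0.38 (SE), with a 95% interval of -1.72 to -0.07, an unadjusted limma p of 0.0364 and an adjusted p of 0.415. Vcan therefore did not pass the study thresholds, since the fold change was short of 1, nor the adjusted threshold.

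Within each replicate number the difference in Vcan was nearly the same, with treated libraries at 51.4%, 54.0% and 55.9% of their untreated partners. Same-numbered libraries also deviated together across all genes tested. With the replicate number as a block the fold change was the same, its SE was 0.25 and the 95% interval was -1.42 to -0.36. The limma p was then 0.00257 and the adjusted p 0.0775, which left the calls as they were. Of the 6 tested genes, 2 were lower in the treated library of every replicate number, Vcan and Hyal2, and 0 were higher in every one. Of all genes tested, 17.8% were lower and 16.9% higher in every replicate number.

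Vcan passed the study thresholds in 4 alternatives. Leaving out untreated replicate 1 gave -1.02, leaving out untreated replicate 2 gave -1.10, and leaving out amisulpride replicate 3 gave -1.26. Weights per library gave -1.20 (unadjusted limma p 0.00308). In these 4 fits 563 to 782 of 12328 to 12614 genes tested passed. The unadjusted limma p was over 0.05 when untreated replicate 3 (-0.55, p 0.187), amisulpride replicate 1 (-0.73, p 0.12) or amisulpride replicate 2 (-0.68, p 0.131) was dropped. The direction was the same in all 14 alternatives.

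**Figure D2:**
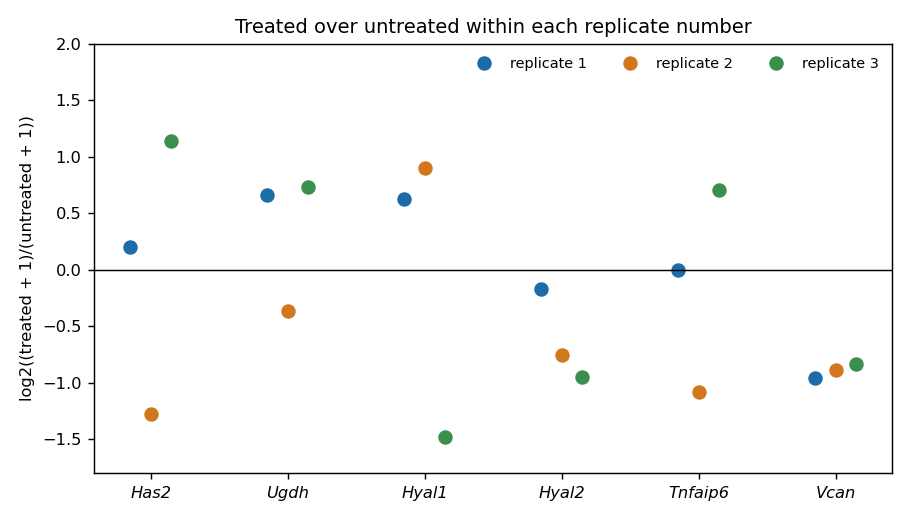
Log2 ratio of (treated + 1) to (untreated + 1) normalised counts (vertical axis) of the 6 tested hyaluronan genes, with 1 point for each replicate number. The 3 points of Vcan lie between -0.96 and -0.84, while those of Has2 spread from -1.28 to 1.14.

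Hapln1 encodes the link protein that locks proteoglycans such as versican onto hyaluronan, and its gene lies 43.5 kb from Vcan on chromosome 13, with both genes transcribed towards each other. Hapln1 (ENSMUSG00000021613, 89540636 to 89611832, plus strand) had 4, 4 and 7 normalised counts in untreated and 1, 3 and 2 in treated libraries. The 3 untreated values were above the floor of their libraries and the 3 treated ones under it. The floors differed, and an untreated value of 4 would be under those of amisulpride replicates 2 (4.014) and 3 (5.367). All treated values lay below the untreated ones, which held in 8.66% of genes tested. Values at this level come from a few reads, so Hapln1 was not tested and no fold is given. Acan (ENSMUSG00000030607, chromosome 7, 79053483 to 79115099, plus strand), the main proteoglycan of cartilage, had 2 normalised counts in amisulpride replicate 3 and 0 in the other 5 libraries, all under the floor. Of the 10 chondrocyte markers 7 never exceeded the floor, among them Col9a1, Matn1 and Snorc at 0 throughout. The others were Sox9, Col2a1 and Col9a3. Col2a1 had 9, 8 and 12 normalised counts in untreated and 4, 3 and 9 in treated libraries, and Col9a3 reached 6 in amisulpride replicate 1. The summed level of the 10 markers, made up mostly of Sox9, was 263 to 289 in untreated and 250 to 569 in treated libraries.

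The 6 tested genes differed in how they varied among libraries. In treated SFs, amisulpride replicate 2 had the lowest value in 4 of the 6 tested genes, namely Has2, Ugdh, Tnfaip6 and Vcan, and in these 4 amisulpride replicate 3 had the highest. In Hyal1 the order was the opposite, with replicate 2 highest and replicate 3 lowest. How often these orders occur over all genes was not counted. The treated libraries differed in their totals, which were 3.943, 3.936 and 4.504 M normalised counts in replicates 1, 2 and 3. The widest treated ranges among the 6 tested genes were in Hyal1 (6.75-fold), Tnfaip6 (3.8-fold) and Has2 (2.83-fold), and the narrowest in Ugdh (1.55-fold). In untreated SFs the range was 2.16-fold in Vcan and 1.94-fold in Has2, and 1.54-fold or less in the other 4 genes.

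**Figure D3:**
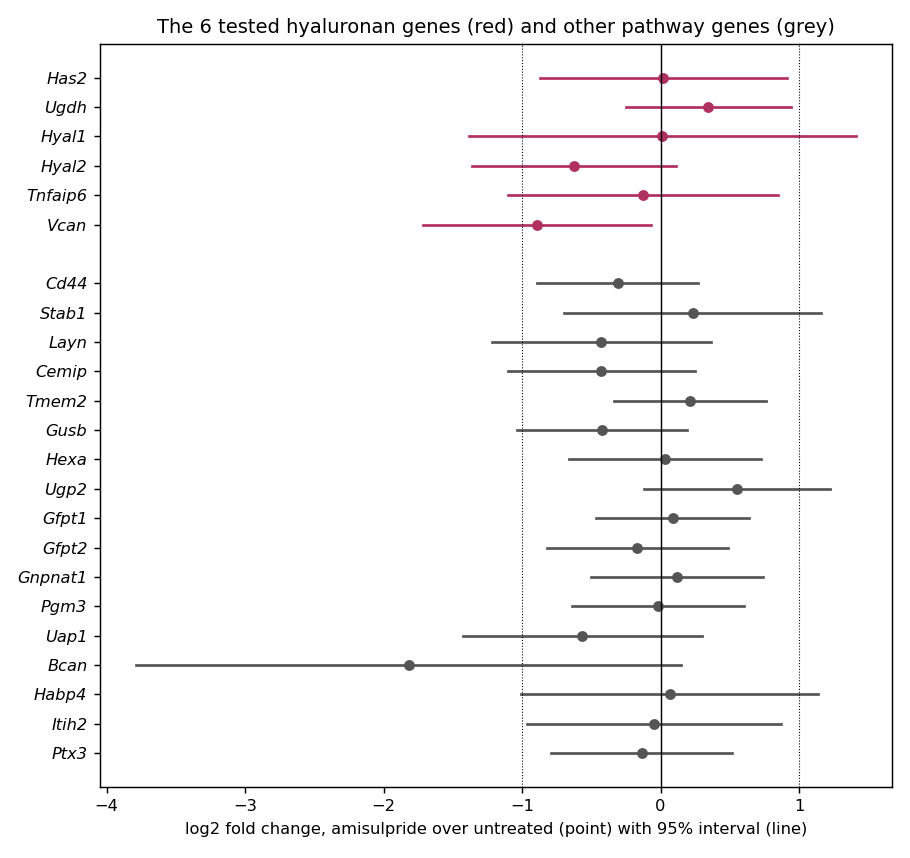
Log2 fold change of amisulpride over untreated SFs (horizontal axis, points) with its 95% limma interval (lines) for the 6 tested hyaluronan genes in red and for 17 other tested pathway genes in grey. Dotted lines mark a log2 fold change of -1 and 1. The interval of Vcan (-1.72 to -0.07) lies below 0, and those of the other 5 hyaluronan genes and of the 17 pathway genes cross 0.

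A further list of 34 genes covered other steps of the pathway, namely receptors, other depolymerases, lysosomal exoglycosidases, sugar nucleotide enzymes, other link proteins and the partners of TSG-6. Of these, 17 were tested, 10 were at 0 in all libraries, and 0 passed the study thresholds in either direction, against the 5.7% given above. The median log2 fold change of the 17 was -0.05, with 7 above and 10 below 0.

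The lysosomal exoglycosidases remove single sugars from the ends of hyaluronan fragments. Hexa, which encodes a hexosaminidase subunit, had a log2 fold change of 0.03 ± 0.32 (SE), with 653 to 1422 normalised counts over all libraries and a limma adjusted p of 0.979. Gusb, a glucuronidase, had a log2 value of -0.42 ± 0.28, which was -0.23 without amisulpride replicate 3. Gusb, and Itih2 further on, were also picked for mention after their values were seen.

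Among receptors, Cd44, the main hyaluronan receptor of fibroblasts, had 1538, 1517 and 1175 normalised counts in untreated and 1497, 1049 and 916 in treated libraries. Each treated library was below its untreated partner, and the groups overlapped. The log2 fold change of Cd44 was -0.31 ± 0.26 (SE), with a 95% interval of -0.89 to 0.27 and a limma adjusted p of 0.720. Hmmr, a receptor that also acts at the mitotic spindle, had 9, 9 and 5 in untreated and 4, 3 and 13 in treated libraries and was not tested. The value of Cd44 was -0.16 without amisulpride replicate 3 and -0.51 without amisulpride replicate 1.

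Cemip encodes a secreted protein needed by fibroblasts to depolymerise hyaluronan, and Tmem2 a cell surface protein related to it. Cemip had 706, 1436 and 950 normalised counts in untreated and 764, 558 and 929 in treated libraries, which gave -0.43 ± 0.31 (SE) as its log2 fold change and 0.662 as its limma adjusted p. Untreated replicate 2 held the highest value and its treated partner the lowest, and the other replicate numbers differed little. Without untreated replicate 2 the Cemip value was -0.16, without amisulpride replicate 2 it was -0.23, and without untreated replicate 1 it was -0.67. Tmem2 stood at 0.21 ± 0.25 on the log2 scale, with 425 to 623 normalised counts over all libraries and a limma adjusted p of 0.795. Dropping untreated replicate 2 gave 0.12 and dropping untreated replicate 1 gave 0.39. The 5 further hyaluronidases of the list did not pass the filter, and 4 of them were at 0 in all libraries.

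All 6 sugar nucleotide enzymes were tested, with 3 above and 3 below 0 on the log2 scale and a median of 0.03. Gfpt1, the entry enzyme of the hexosamine route, stood at 0.09 ± 0.25 (SE) on that scale, with a limma adjusted p of 0.924. Ugp2, which supplies the UDP-glucose used by Ugdh and was chosen for mention after its values were seen, had 168, 163 and 182 normalised counts in untreated and 192, 205 and 401 in treated libraries, without overlap. Its log2 fold change was 0.55 ± 0.30, with an unadjusted limma p of 0.0969. The high value was that of amisulpride replicate 3, without which the fold change was 0.22. Uap1, also chosen after its values were seen, moved the other way, with a log2 fold change of -0.565 ± 0.394. It had 228, 221 and 243 normalised counts in untreated and 263, 190 and 75 in treated libraries. Without amisulpride replicate 3 the Uap1 value was -0.044.

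The pentraxin Ptx3, which binds TSG-6, had 11432 to 17575 normalised counts in untreated and 11513 to 14232 in treated libraries. Its log2 fold change was -0.14 ± 0.30 (SE), with a limma adjusted p of 0.897. Itih2, which encodes a heavy chain of inter-alpha-inhibitor, had a log2 value of -0.05 ± 0.42, which was -0.40 without amisulpride replicate 3. Habp4, an RNA-binding protein named for its affinity to hyaluronan, stood at 0.07 ± 0.49, with a limma adjusted p of 0.973.

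Hapln4, Bcan and Stab2 are named because alternatives called them, so they were chosen after their values were seen. Hapln4, a link protein known from brain, had 9, 21 and 28 normalised counts in untreated and 3, 4 and 0 in treated libraries. All treated values lay below the untreated ones, but only 2 libraries reached the minimum of 10. The treated values of replicates 2 and 3 were under the floors of their libraries, so no fold is given. With a minimum of 5, which only its untreated libraries reached, Hapln4 was lower past the study thresholds (adjusted limma p 0.183). It entered that fit through the higher group alone, so this call is no evidence of a change. Bcan, a brain proteoglycan of the versican family, had 21, 9 and 12 in untreated and 12, 4 and 0 in treated libraries, of which the treated values of replicates 2 and 3 were likewise under the floor. The unadjusted limma p of Bcan was 0.0667, 0.0262 with the replicate block (adjusted p 0.258) and 0.227 without amisulpride replicate 3. Stab2, a scavenger receptor for hyaluronan, stood at 0 throughout untreated SFs and had 3, 8 and 2 normalised counts after amisulpride, of which 2 were above the floor. It was not tested at the minimum of 10. Without a filter it was called higher (adjusted limma p 0.216), but it entered that fit through its treated libraries alone. That call is thus no evidence of a change either.

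**Figure D4:**
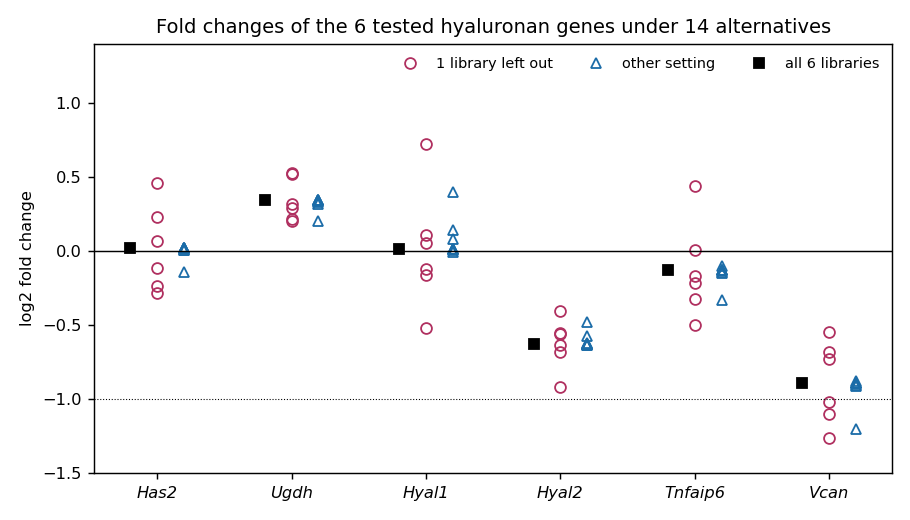
Log2 fold change (vertical axis) of the 6 tested hyaluronan genes with all 6 libraries (squares), with 1 library left out (circles) and under the 8 other settings (triangles). The dotted line marks -1. Vcan stays below 0 in every fit, from -1.26 to -0.55, and Hyal2 from -0.92 to -0.41, while Has2, Hyal1 and Tnfaip6 have values on both sides of 0.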

How the data were processed

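Cultured SFs were profiled by 3′ mRNA sequencing (QuantSeq, Ion Proton), with 3 libraries in each group. The authors mapped reads to mm10 with TopHat2 at default settings and the remainder with Bowtie2, counted reads per gene with GenomicRanges, normalised the counts and tested them with DESeq through metaseqr. Versions were not given in the sources used here. What the authors deposited is treated as a score: read counts scaled per library and given as whole numbers, so no count model was used. Another 12 columns of per-library values on other scales, and the authors' fold changes and p-values, were not used.

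The 2 groups were set against each other on log2(normalised count + 1) by limma (version 3.58.1, R 4.3.3), whose variances were moderated with a mean-variance trend (prior df 7.31), without covariates and two-sided. Genes needed at least 10 in at least 3 libraries, which left 12614 genes, and p-values were adjusted by Benjamini-Hochberg over these. Fold changes on this scale understate those of low genes. An exact permutation test of 3 against 3 libraries could not pass 0.05. The value of 1 read in each library was found by maximum likelihood from gaps among low values, and this estimate and the limma fit were tested on simulated data.

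The alternatives were pseudocounts of 0.5 and 5, a minimum of 5 and no filter, TMM and quantile scaling, weights per library, a replicate block and each library left out. Replicate numbers come from the labels. Deviations from the group means correlated at 0.229, 0.24 and 0.201 within numbers 1, 2 and 3, and at -0.149 to -0.0777 between different numbers. Deviations from a group mean sum to 0, so values above 0 within numbers pull those between numbers below 0. The numbers were taken as pairs in the replicate block and in comparisons within a replicate number. The main fit, which gave the calls and intervals unless the block is named, did not use them. The 10 genes and all lists were chosen with earlier results of these data known. The text names all 10 genes and, of the 34 pathway genes, the most abundant tested of each sub-list, those with an unadjusted p-value under 0.05, and Cd44, Hmmr, Cemip and Tmem2. Genes added after their values were seen are marked as such, and the plot of fold changes shows every tested pathway gene. Another gene of the planned pathway list is not reported here, and the counts of that list leave it out. Gene positions are those of the deposited table (mm10), and start sequences are those of RefSeq on GRCm38.p6.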

Additional observations from a re-analysis of the deposited data

How the results depend on the processing

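Of 182 values of the 13 tested genes that are followed here under 14 alternatives, 161 kept their direction and their side of the study thresholds, 17 changed sign and 4, all of Vcan, passed the thresholds. The number of the 10 genes past the study thresholds was 0 of 6 tested with all libraries. It was 1 of 6 with weights per library, against 782 of all 12614 genes tested. With 1 library left out it was 0 to 1 of 6, against 563 to 1000 of 12328 to 12392 genes. The gene was Vcan each time. The number with an adjusted p-value under 0.05 was 0 throughout, and the lowest adjusted limma p of Vcan was 0.0775, under the replicate block. Of the 34 pathway genes, 0 passed as reported above. Without a filter 2 of 24 tested passed (Hapln4 and Stab2), against 1313 of all 22775 genes tested. With a minimum of 5 it was 1 of 19 (Hapln4), against 850 of 14047. Hapln4 in that fit, and Stab2 without a filter, were let in by 1 group alone. With the replicate block 1 of 17 passed (Bcan), against 834 of 12614. The block changed no other call of the pathway genes. Over all genes tested, 36 had an adjusted limma p-value under 0.05, against 263 with the block, 195 with weights per library, 66 with quantile scaling, 57 with a pseudocount of 5 or no filter, and 0 to 120 with 1 library left out. It was 0 without untreated replicate 2 or 3, where 719 and 601 genes passed the study thresholds, and 120 without amisulpride replicate 3. Has2 was at -0.14 with weights per library, and Hyal1 at -0.0032 with a pseudocount of 0.5. With 1 library left out, log2 fold changes ranged from -0.28 to 0.46 for Has2, -0.52 to 0.72 for Hyal1, -0.50 to 0.44 for Tnfaip6, -0.0642 to 0.23 for Gfpt1, -0.45 to 0.48 for Habp4, -0.23 to 0.33 for Hexa and -0.27 to 0.0384 for Ptx3. The cause of these sign changes was not tested. Has1, Has3, Hapln1 and Acan never exceeded 7 normalised counts. Whether depth or the assignment of reads kept them low was not tested.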
